A study of Mus musculus with 34 samples.

Results

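The 9 retinoid metabolism genes *Aldh1a1*, *Aldh1a2*, *Aldh1a3*, *Aldh1a7*, *Rdh10*, *Dhrs3*, *Crabp1*, *Crabp2* and *Rarb* were followed through 14 RNA-Seq libraries of immortalized mouse brown preadipocytes. They were chosen by name from the retinoic acid pathway, in part because *Aldh1a7* was nearly lost after *Nsd2* knockdown (KD), so that the contrast of KD with control is a description of how they were selected. All 9 were found among the 23109 genes of the files, each taken as the RefSeq transcript with the highest mean RPKM (mapped reads scaled to transcript length and library depth) over the 14 libraries. Every library came from C57BL/6J cells that the labels give as GR-flox/flox, taken from the interscapular brown fat of newborn pups and made immortal with the SV40 T antigen. The labels add that cells received retroviral Vec or Cre but do not say which one each library had. In the first set, cells carried a retrovirus for wild-type (WT) histone H3.3 or for its K36M mutant (K36M) and were collected before (D0), at day 2 (D2) and at day 7 (D7) of adipogenesis. In the second set, WT or K36M cells also carried a PPARγ retrovirus, were kept sub-confluent, and received vehicle (DMSO) or the PPARγ ligand rosiglitazone (Rosi), for which the labels give 0 h and 24 h and the study's methods 24 h for both. In the third set, cells carried a lentivirus for a control (Ctrl) or an *Nsd2* shRNA and were collected at D0 and D2. Each condition was 1 library of a virus-infected culture of one immortalized population, so no difference below has a replicate check.

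Retinol is oxidized to retinaldehyde, which RDH10 makes and DHRS3 reduces back to retinol. Retinaldehyde dehydrogenases of the ALDH1A family then make retinoic acid, the cellular retinoic acid binding proteins CRABP1 and CRABP2 carry it, and the retinoic acid receptors, RARβ among them, bind DNA with RXR partners when it arrives. Retinaldehyde and retinoic acid are both known to restrain adipocyte formation from preadipocytes, and ALDH1A1 is the main retinaldehyde dehydrogenase of fat. ALDH1A7 is a close paralogue of ALDH1A1 whose product is known to have little activity on retinaldehyde.

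*Aldh1a1* and *Aldh1a7* lie near each other on chromosome 19, and their sequences are shown because their reads could be confused and their courses differed. On NCBIM37 (mm9), *Aldh1a1* spans chr19:20676451-20717952 on the plus strand and *Aldh1a7* spans chr19:20767443-20802052 on the minus strand, each with 13 exons. Their annotated transcripts of 2053 and 2066 bases were identical at 89.0% of aligned positions, and 151 windows of 50 bases were shared exactly, which is 7.53% of those of *Aldh1a1* and 7.49% of those of *Aldh1a7*. No such window was shared between any other pair of the ALDH1A genes or between *Crabp1* and *Crabp2*. The RefSeq promoters (GRCm38.p6) of *Aldh1a1* at chr19:20601858-20601967, plus strand, and of *Aldh1a7* at chr19:20727557-20727666, minus strand, were identical at 104 of the 110 bases before the start site and at 25 of the 140 bases before those. In the following pair, capitals mark the 6 bases that differ.
Aldh1a1: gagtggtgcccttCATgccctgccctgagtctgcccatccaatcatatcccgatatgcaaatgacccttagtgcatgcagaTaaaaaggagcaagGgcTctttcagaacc
Aldh1a7: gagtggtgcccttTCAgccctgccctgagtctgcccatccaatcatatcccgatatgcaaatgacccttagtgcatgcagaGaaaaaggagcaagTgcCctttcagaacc

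Promoter rows existed for 6 of the 9 genes, and *Crabp1* and *Rarb* are shown since their promoters differed from that pair. The 300-base promoters of *Aldh1a1* (the row printed above) and *Aldh1a7* each held 1 CpG dinucleotide, against 17 in *Crabp1*, 17 in *Rarb*, 50 in *Aldh1a2* and a median of 7 over all 32851 promoters. The 250 bases before the *Crabp1* start site, chr9:54764498-54764747, GRCm38.p6, plus strand, are printed with their 12 CpG dinucleotides in capitals. The 100 bases before the *Rarb* start site, chr14:16575477-16575576, minus strand, are printed with the elements of a retinoic acid response element in capitals. The search was for a direct repeat with copies set 5 bases apart, each copy being AGGTCA or the same letters with G as the first, with T as the third or with both changes, on either strand and in any of the 300 bases. It matched *Rarb* and none of the other 5 genes, and 32 of all 32851 promoters (0.0974%) held a match, which describes letters and not binding.
Crabp1: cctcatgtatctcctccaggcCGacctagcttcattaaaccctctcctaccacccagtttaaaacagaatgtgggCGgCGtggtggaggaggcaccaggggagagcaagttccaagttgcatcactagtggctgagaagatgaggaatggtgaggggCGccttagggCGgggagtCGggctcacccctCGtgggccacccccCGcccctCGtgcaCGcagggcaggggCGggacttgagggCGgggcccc
Rarb: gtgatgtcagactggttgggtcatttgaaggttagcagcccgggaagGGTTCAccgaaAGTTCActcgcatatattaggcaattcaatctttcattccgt

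The libraries held 12213559 to 24365867 mapped reads, recovered as whole reads from the RPKM steps. Between 15868 and 18385 genes were above 0 in 12 libraries, but 20121 and 19981 were in the PPARγ K36M libraries with DMSO and Rosi, which stood apart, and results on them rest on those 2 libraries alone. *Nsd2*, the targeted H3K36 methyltransferase, read 19.9 in Ctrl and 5.85 in KD at D0, and 29.0 and 7.01 at D2. The summed RPKM of 6 adipocyte markers ran from 34.0 in KD at D0 to 3603 in WT at D2, where *Fabp4* alone read 3249. Of 4 brown fat markers, *Ucp1* and *Cidea* stayed at or below 0.194 RPKM in every library, *Ppargc1a* went from 0.210 at D0 to 6.32 at D7 in WT, and *Prdm16* read 1.36 to 3.36 in the WT and K36M time courses. Endothelial markers summed to at most 2.47 and leukocyte markers to at most 3.11, with *Cd68* not analysed here. Skeletal muscle markers summed to 0.237 to 67.6, nearly all of it *Acta1*, and were highest in the PPARγ K36M cells with DMSO. In bulk RNA, fewer cells of a type and less RNA per cell cannot be told apart.

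In what follows, a gene is said to rise or fall where RPKM differed by over 2-fold and was at least 1 in 1 or both libraries. Intervals are 95% Clopper-Pearson intervals of the read ratio, cover counting error only, and compare libraries and not conditions. Comparisons that use the same WT, Ctrl or K36M library are not independent of each other.

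*Rdh10*, which makes retinaldehyde, was expressed in all 14 libraries within a narrow range of 2.03 to 9.60 RPKM. It read 3.75, 6.87 and 3.57 in WT cells at D0, D2 and D7. In K36M cells it read 6.03, 9.60 and 5.53. Both courses peaked at D2, and the K36M library was above the WT library on each day. In the PPARγ cells it read 3.35 in WT with DMSO, 3.35 in WT with Rosi, 4.11 in K36M with DMSO and 4.34 in K36M with Rosi. The Rosi to DMSO log2 ratio of *Rdh10* was -0.00 in WT (interval -0.34 to 0.34) and 0.08 in K36M (-0.25 to 0.40), so the ligand gave no difference detectable at this depth. In the shRNA cells it read 2.03 and 5.51 in Ctrl at D0 and D2, and 3.03 and 6.39 in KD. *Rdh10* rose 2.72-fold in Ctrl (log2 1.44, interval 1.09 to 1.80) and 2.11-fold in KD (log2 1.08, interval 0.76 to 1.40) from D0 to D2, the latter under 2-fold with a pseudocount of 1. Its D0 to D2 ratios in WT and K36M were 1.83-fold and 1.59-fold, under the threshold. K36M over WT was log2 0.69, 0.48 and 0.63 at D0, D2 and D7, and 0.30 and 0.37 with PPARγ, all on one side and all under 2-fold.

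*Dhrs3*, which returns retinaldehyde to retinol, was above 1 RPKM in 13 of 14 libraries, with a median of 12.8. It read 12.8, 17.9 and 25.1 in WT cells at D0, D2 and D7. In K36M cells it read 4.03, 17.3 and 14.6. *Dhrs3* thus started 3.17-fold lower in K36M than in WT at D0 (log2 -1.67, interval -1.99 to -1.35), rose 4.29-fold by D2 and was level with WT there (log2 -0.05, interval -0.27 to 0.16). In the PPARγ cells it read 22.2 in WT with DMSO, 35.3 in WT with Rosi, 11.7 in K36M with DMSO and 12.9 in K36M with Rosi. With Rosi, the K36M library was 2.74-fold below the WT one (log2 -1.45, interval -1.68 to -1.24), while with DMSO the 1.89-fold gap did not pass the threshold. In the shRNA cells it read 12.2 and 5.04 in Ctrl at D0 and D2, and 5.44 and 0.839 in KD. *Dhrs3* fell 2.43-fold in Ctrl and 6.49-fold in KD over those days, and was lower in KD than in Ctrl by 2.25-fold at D0 (log2 -1.17, interval -1.47 to -0.87) and by 6.00-fold at D2 (log2 -2.59, interval -3.34 to -1.90). The library of KD at D2 held 20 *Dhrs3* reads, the fewest of any. The control populations moved apart in this gene: WT and Ctrl were alike at D0 (log2 -0.06, interval -0.28 to 0.15) and Ctrl was 3.55-fold below WT at D2. *Dhrs3* was the 1 member with a further transcript in the files, whose log2 ratio of KD over Ctrl was -1.20 at D0 and -2.54 at D2, a check chosen after seeing the data.

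*Aldh1a7* reached the highest RPKM of the ALDH1A genes. It read 0.272, 18.7 and 41.7 in WT cells at D0, D2 and D7. In K36M cells it read 0.0489, 9.18 and 2.15. With PPARγ it read 0.804 in WT with DMSO, 10.4 in WT with Rosi, 0.120 in K36M with DMSO and 0.422 in K36M with Rosi. In the shRNA cells it read 0.295 and 15.9 in Ctrl at D0 and D2, and 0.0836 and 0.0550 in KD. The 6 libraries above 1 RPKM were all at D2, D7 or with Rosi, and neither KD library nor either PPARγ K36M library was among them.

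From D0 to D2, *Aldh1a7* rose 68.5-fold in WT (12 to 734 reads, log2 6.10, interval 5.28 to 7.06) and 54.1-fold in Ctrl (12 to 662 reads, log2 5.76, interval 4.94 to 6.72). The D2 levels of these controls were close, with Ctrl over WT at log2 -0.23 (interval -0.38 to -0.07). In K36M it rose as well, from 2 to 237 reads, with a log2 ratio of 7.55 (interval 5.68 to 10.61), and ended 2.03-fold below WT at D2, at the edge of the threshold. After D2 the courses parted: *Aldh1a7* rose a further 2.24-fold to D7 in WT (log2 1.16, interval 1.03 to 1.30) and fell 4.28-fold in K36M (log2 -2.10, interval -2.55 to -1.67). At D7 it was 19.4-fold lower in K36M than in WT (log2 -4.28, interval -4.70 to -3.89). In KD it held 3 reads at D0 and 2 at D2, against 662 reads in Ctrl at D2, a log2 ratio of -8.18 (interval -11.23 to -6.32), the contrast for which the gene was chosen.

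In PPARγ cells, Rosi raised *Aldh1a7* 13.0-fold in WT (36 to 355 reads, log2 3.70, interval 3.20 to 4.23). In K36M the reads went from 6 to 11 (log2 1.82, interval 0.26 to 3.54), below 1 RPKM in both libraries. With Rosi the K36M library was 24.7-fold below the WT one (log2 -4.63, interval -5.64 to -3.77).

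*Aldh1a1*, the main retinaldehyde dehydrogenase of fat, was a D7 gene. It read 0.805, 0.232 and 22.6 in WT cells at D0, D2 and D7. In K36M cells it read 0.198, 0.550 and 4.15. Reads in WT went from 9 at D2 to 612 at D7, a 97.5-fold rise (log2 6.61, interval 5.67 to 7.74), and in K36M from 14 to 103, a 7.55-fold rise (log2 2.92, interval 2.10 to 3.84). *Aldh1a1* ended 5.45-fold lower in K36M than in WT at D7 (log2 -2.45, interval -2.76 to -2.14). With PPARγ, *Aldh1a1* read 0.634 in WT with DMSO, 1.34 in WT with Rosi, 0.545 in K36M with DMSO and 0.777 in K36M with Rosi. It rose 2.11-fold with Rosi in WT (interval of log2 0.37 to 1.81), while the K36M ratio of log2 0.51 had an interval of -0.40 to 1.40. In the shRNA cells it read 0.897 and 1.47 in Ctrl at D0 and D2, and had 0 reads in both KD libraries. With the count of 0 set to a floor of 3 reads, *Aldh1a1* was 10.6-fold lower in KD than in Ctrl at D0, where Ctrl was under 1 RPKM. At D2 it was 17.5-fold lower by the same floor. The log2 intervals ended at -3.03 and -3.79. *Aldh1a7* and *Aldh1a1* were thus both nearly absent from KD cells, yet they rose at different times: in WT at D2 *Aldh1a7* held 734 reads and *Aldh1a1* held 9. How reads of the shared windows were assigned is not given in the sources used here.

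*Aldh1a2*, another retinaldehyde dehydrogenase, was above 1 RPKM only in WT and Ctrl at D0. It read 1.80, 0 and 0.232 in WT cells at D0, D2 and D7, and 2.28 and 0.0438 in Ctrl at D0 and D2. Every other library held at most 5 *Aldh1a2* reads, at 0.102 RPKM or below. That value was of PPARγ WT cells with DMSO, which carried neither the mutant nor an *Nsd2* shRNA. At D0 *Aldh1a2* was 26.9-fold lower in K36M than in WT (87 to 3 reads, log2 -4.75, interval -7.06 to -3.16). At D0 it was 30.0-fold lower in KD than in Ctrl against a floor of 3 reads (102 to 0 reads, log2 interval ending at -4.58). The WT and Ctrl libraries at D0, made with different vectors, differed by log2 0.34 (interval -0.08 to 0.77). From D0 to D2, *Aldh1a2* fell 25.9-fold in WT against a floor of 3 reads (log2 interval ending at -4.37). In Ctrl it fell 52.0-fold (102 to 2 reads, log2 -5.70, interval -8.77 to -3.81).

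*Aldh1a3* stayed under 1 RPKM in every library, from 0.0442 to 0.636, and entered no call. Its highest values were in D0 or DMSO cells, and it read 0.439 and 0.200 in KD at D0 and D2 against 0.327 and 0.0876 in Ctrl. The KD over Ctrl log2 ratios of *Aldh1a3*, 0.42 and 1.19, had intervals of -0.45 to 1.31 and -0.34 to 2.89. It was the 1 ALDH1A gene without a lower value in KD.

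Summed over the 4 ALDH1A genes, RPKM was 3.20, 18.9 and 64.6 in WT at D0, D2 and D7, and 0.566, 9.81 and 6.48 in K36M. It was 2.17 and 11.996 in PPARγ WT cells with DMSO and Rosi, and 0.979 and 1.36 in PPARγ K36M cells. It was 3.80 and 17.5 in Ctrl at D0 and D2, and 0.522 and 0.280 in KD. The mix changed as well: *Aldh1a2* held 56.1% of it in WT at D0 and 60.02% in Ctrl at D0, *Aldh1a7* held 98.5% and 90.9% at D2, and *Aldh1a7* with 64.6% and *Aldh1a1* with 35.0% shared it in WT at D7. In KD, *Aldh1a3* made up 84.0% and 71.4% of a sum that stood below 1 RPKM. Without *Aldh1a7*, the sum in Ctrl went from 3.50 at D0 to 1.60 at D2, and in WT from 2.93 to 0.293 and then to 22.9 at D7.

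**Figure D1:**
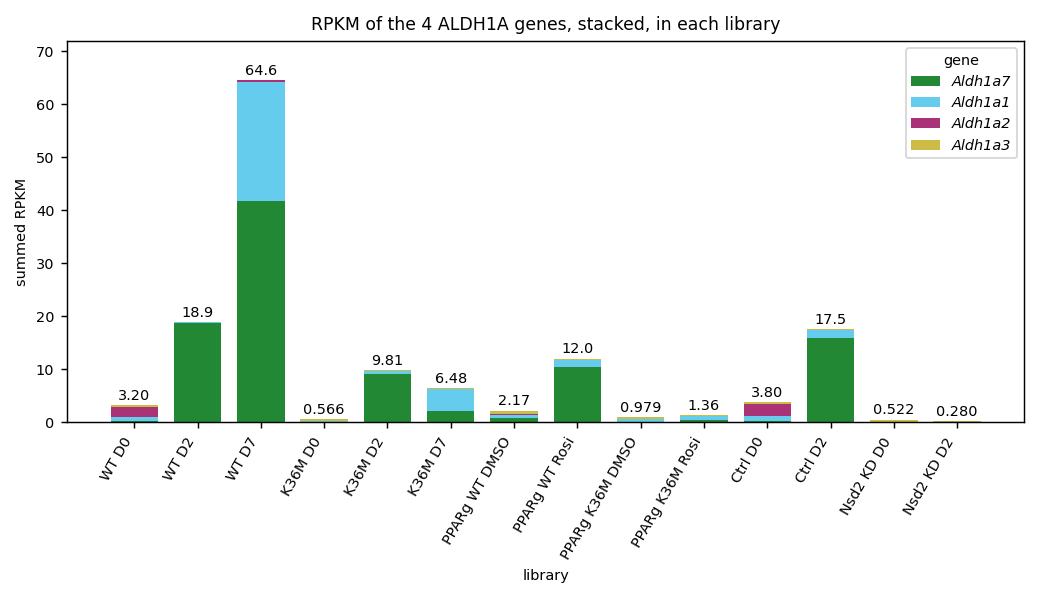
Stacked bars of RPKM for Aldh1a7, Aldh1a1, Aldh1a2 and Aldh1a3 in each of the 14 libraries, with the sum of the 4 genes above each bar. The sum was 64.6 in WT at D7, mostly Aldh1a7 and Aldh1a1, and 0.522 and 0.280 in the Nsd2 KD libraries.

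*Crabp1*, the retinoic acid binding protein linked to retinoic acid breakdown, was the member most raised in K36M cells. It read 2.08, 0.706 and 0 in WT cells at D0, D2 and D7. In K36M cells it read 55.8, 14.4 and 19.3. *Crabp1* was 26.8-fold higher in K36M than in WT at D0 (33 against 821 reads, log2 4.74, interval 4.24 to 5.29) and 20.4-fold higher at D2 (log2 4.35, interval 3.43 to 5.45). At D7, 175 reads stood against 0 in WT, 63.6-fold above a floor of 3 reads (log2 interval starting at 5.68). In the PPARγ cells it read 0.496 in WT with DMSO, 0.0816 in WT with Rosi, 32.8 in K36M with DMSO and 9.70 in K36M with Rosi. The 5 K36M libraries, at 9.70 or above, were all higher than the 5 WT libraries, at 2.08 or below. K36M over WT was 66.1-fold with DMSO (8 against 592 reads, log2 6.05, interval 5.06 to 7.26), and log2 6.89 with Rosi (1 against 91 reads, interval 4.38 to 12.21).

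In the shRNA cells the D0 libraries were both high. *Crabp1* read 7.58 and 0.0670 in Ctrl at D0 and D2, and 10.1 and 0 in KD, a KD over Ctrl log2 ratio of 0.42 at D0 (interval 0.04 to 0.80). The gene fell in both from D0 to D2, with a log2 ratio of -6.82 in Ctrl (111 to 1 reads, interval -12.14 to -4.32). In KD it fell 44.3-fold against a floor of 3 reads (131 to 0 reads, log2 interval ending at -5.15). It fell 2.95-fold in WT and 3.87-fold in K36M over the same days, and 3.38-fold with Rosi in PPARγ K36M cells (log2 -1.76, interval -2.09 to -1.44). The controls differed at D0 already, Ctrl being 3.64-fold above WT (log2 1.86, interval 1.29 to 2.47), a gap smaller than the K36M one.

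*Crabp2*, which delivers retinoic acid to its receptors, had a lower maximum than *Crabp1*, 5.87 against 55.8 RPKM, but took the same order in the K36M set. It read 1.40, 0.698 and 0.250 in WT cells at D0, D2 and D7. In K36M cells it read 5.87, 1.51 and 2.73. *Crabp2* was 4.19-fold higher in K36M at D0 (log2 2.07, interval 1.44 to 2.73), 2.16-fold at D2 with an interval of log2 -0.04 to 2.31, and 10.9-fold at D7 (3 against 30 reads, log2 3.45, interval 1.76 to 5.80). With PPARγ, *Crabp2* read 0.255 in WT with DMSO, 0.201 in WT with Rosi, 1.32 in K36M with DMSO and 2.28 in K36M with Rosi. K36M over WT was thus 5.18-fold with DMSO (log2 2.37, interval 0.99 to 4.10) and log2 3.50 with Rosi (3 against 26 reads, interval 1.80 to 5.87). In the shRNA cells *Crabp2* read 0.337 and 0.386 in Ctrl at D0 and D2, and 0.829 and 0.440 in KD, all under 1. *Crabp1* and *Crabp2*, on chromosomes 9 and 3, had a Pearson r of 0.81 of log2(RPKM + 1) over the 14 libraries as a description. The 4 highest libraries of each gene were K36M ones, and the fifth K36M library ranked below KD at D0 for *Crabp1* and below WT at D0 for *Crabp2*.

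*Rarb*, the receptor whose promoter element is printed above, stayed under 1 RPKM in every library, from 0.0204 to 0.931, and so entered no call. It read 0.152, 0.189 and 0.568 in WT at D0, D2 and D7, and 0.145, 0.115 and 0.325 in K36M. In the PPARγ cells it read 0.746 in WT with DMSO, 0.370 in WT with Rosi, 0.325 in K36M with DMSO and 0.0854 in K36M with Rosi. With the shRNAs, *Rarb* read 0.931 and 0.411 in Ctrl at D0 and D2, and 0.103 and 0.0204 in KD, the last being the lowest of the 14 libraries. The reads of *Rarb* were 51 against 5 at D0 (log2 -3.17, interval -4.85 to -1.85) and 23 against 1 at D2 (log2 -4.33, interval -9.70 to -1.71). Ctrl was 6.13-fold above WT at D0 (log2 2.62, interval 1.58 to 3.83), so the control level of *Rarb* was itself not steady.

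**Figure D2:**
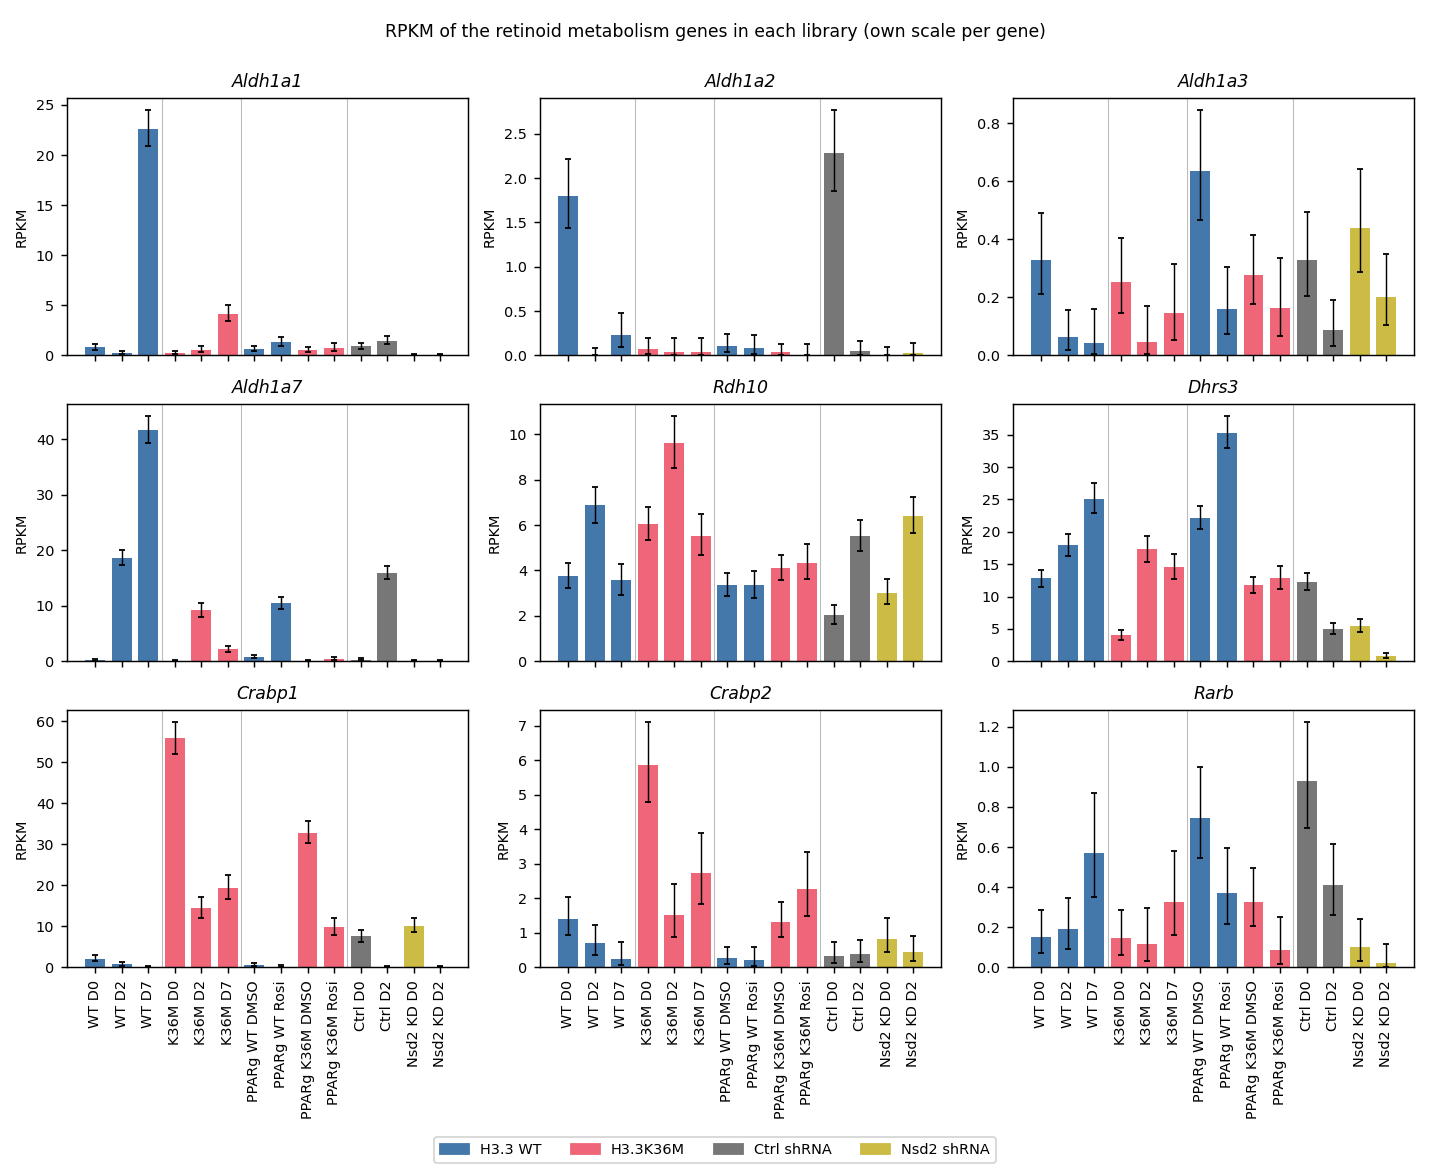
RPKM of each of the 9 genes in the 14 libraries, on its own linear scale, with bars coloured by H3.3 WT, H3.3K36M, Ctrl shRNA or Nsd2 shRNA and lines for the 95% exact Poisson interval of the reads (counting error only, 1 library per bar). The 5 K36M bars of Crabp1, at 9.70 or above, exceed the 5 WT bars, and Aldh1a7 stays at 0.0836 or below in both Nsd2 KD libraries.

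Across the genes, *Aldh1a7* rose from D0 to D2 in WT, Ctrl and K36M, and *Crabp1* fell in these and in KD. From D0 to D2 in WT, *Aldh1a7* rose and *Aldh1a2*, *Crabp1* and *Crabp2* fell, which is 4 of the 6 members at 1 RPKM or more in 1 or both libraries, where 26.7% of all genes so filtered passed 2-fold. In Ctrl, *Aldh1a7* and *Rdh10* rose and *Aldh1a2*, *Dhrs3* and *Crabp1* fell, 5 of 6 beside 27.4% of all genes. In K36M, *Aldh1a7* and *Dhrs3* rose and *Crabp1* and *Crabp2* fell, 4 of 5 beside 21.5%. In KD, *Rdh10* rose and *Dhrs3* and *Crabp1* fell, 3 of 3 beside 28.6%. From D2 to D7, *Aldh1a1* and *Aldh1a7* rose in WT, 2 of 4 beside 20.8%, while in K36M *Aldh1a1* rose and *Aldh1a7* fell, 2 of 6 beside 22.7%. With 3 to 6 genes behind each count, these shares are given beside the background as descriptions.

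*Crabp1* and *Crabp2* were higher in K36M than in WT on each of the 3 days, while the enzymes that were lower were not the same ones on each day. At D0, *Crabp1* and *Crabp2* were higher and *Aldh1a2* and *Dhrs3* lower, 4 of 5 members beside 11.4% of all genes. At D2, *Crabp1* and *Crabp2* were higher and *Aldh1a7* lower, 3 of 5 beside 15.6%. At D7, *Crabp1* and *Crabp2* were higher and *Aldh1a1* and *Aldh1a7* lower, 4 of 6 beside 20.2%. With ectopic PPARγ, *Crabp1* and *Crabp2* were higher in K36M with DMSO, 2 of 4 beside 8.20%, and with Rosi *Crabp1* and *Crabp2* were higher and *Aldh1a7* and *Dhrs3* lower, 4 of 6 beside 19.1%. Adipocyte marker sums moved with these comparisons. They were 37.1 RPKM in K36M against 59.8 in WT at D0, 1603 against 3603 at D2 and 227 against 3521 at D7. With PPARγ and Rosi they were 1232 against 3113. *Fabp4* made up most of the D2 and Rosi sums, at 1473 against 3249 and at 1148 against 2505. At D2, 4 of the 6 markers were over 2-fold lower in K36M, while *Adipoq* was higher, at 10.6 against 6.16. *Pparg*, which the PPARγ cells also carried on a retrovirus, read 42.6 in K36M against 56.8 in WT with Rosi. Preadipocyte and mesenchymal markers summed to 134 against 328 at D0, 131 against 56.0 at D2 and 630 against 290 at D7. *Ly6a* was the largest part of these sums, at 60.5 against 197, 86.3 against 31.3 and 408 against 169. Of the 5 markers, 2 passed 2-fold on each day, lower in K36M at D0 and higher at D2 and D7. With PPARγ these markers summed to 133 in K36M against 160.1 in WT with DMSO, and to 64.7 against 130.5 with Rosi. The adipocyte markers summed to 150.4 against 214 with DMSO. The part of either marker group in the members' values was not tested.

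Rosi raised *Aldh1a1* and *Aldh1a7* in PPARγ WT cells, 2 of 4 members beside 15.0% of all genes, and neither passed in PPARγ K36M cells, where *Crabp1* fell, 1 of 4 beside 16.8%. Of members at 1 RPKM or more in 1 or both libraries, none was over 2-fold higher in *Nsd2* KD than in Ctrl. At D0 *Rdh10* (log2 0.58, interval 0.17 to 0.98) and *Crabp1* (log2 0.42) were above Ctrl by more than counting error. Under 1 RPKM, *Crabp2* at D0 was 2.46-fold and *Aldh1a3* at D2 2.28-fold higher in KD, with log2 intervals that held 0. Also under 1 RPKM, *Aldh1a1* at D0 and *Rarb* on both days were over 2-fold lower, with log2 intervals below 0. *Aldh1a7* at D0 (12 reads in Ctrl, 3 in KD, log2 interval -4.28 to 0.07) was lower with an interval that held 0. So was *Crabp1* at D2, with 1 read in Ctrl and 0 in KD. At D0, *Aldh1a2* and *Dhrs3* were lower in KD, 2 of 4 members beside 17.4%, and at D2 *Aldh1a1*, *Aldh1a7* and *Dhrs3* were lower, 3 of 4 beside 14.4%. The loss of *Aldh1a7* in KD was part of how the genes were chosen, so the D2 count describes that choice. The adipocyte markers summed to 34.0 in KD against 42.2 in Ctrl at D0 and to 57.3 against 1441 at D2. The D0 sums hid opposite changes: *Pparg* read 26.4 in KD against 12.5 in Ctrl, *Cebpa* 0.239 against 14.7 and *Fabp4* 7.16 against 14.8. Of the 3 markers at 1 RPKM or more there, 1 was higher and 2 lower, with a median log2 ratio of -1.05. At D2 in KD the 6 markers were all lower than in Ctrl by over 2-fold, and their part in the loss of *Aldh1a7* and *Aldh1a1* was not tested. Of 5 preadipocyte and mesenchymal markers, 2 were higher and 3 lower in KD at D0, with a median log2 ratio of -1.33 (*Pdgfra* at 1.51 against 22.9 RPKM, *Dlk1* at 171 against 38.1). At D2, 1 was higher and 3 lower of 4, with a median of -2.09, and their part was not tested either. Set side by side, *Aldh1a2* and *Dhrs3* at D0 were lower both in K36M than in WT and in KD than in Ctrl. So was *Aldh1a7* at D2, a gene at the edge of the threshold in K36M and chosen for its loss in KD. The log2 ratio of *Crabp1* at D0 was 4.74 for K36M and 0.42 for KD, a difference that was not tested.

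The control populations give a yardstick. Between Ctrl and WT, which carry neither the mutant nor an *Nsd2* shRNA, *Crabp1* was higher and *Crabp2* lower at D0, 2 of 5 members beside 22.2% of all genes, and *Aldh1a1* was higher and *Dhrs3* lower at D2, 2 of 4 beside 11.2%. The median log2 ratio of genes with at least 1 RPKM in both libraries was -0.22 at D0 and -0.14 at D2 in this contrast, 0.11 for K36M over WT at D7 and -0.11 for PPARγ K36M over WT with Rosi. The other 13 medians were within 0.10 of 0.

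**Figure D3:**
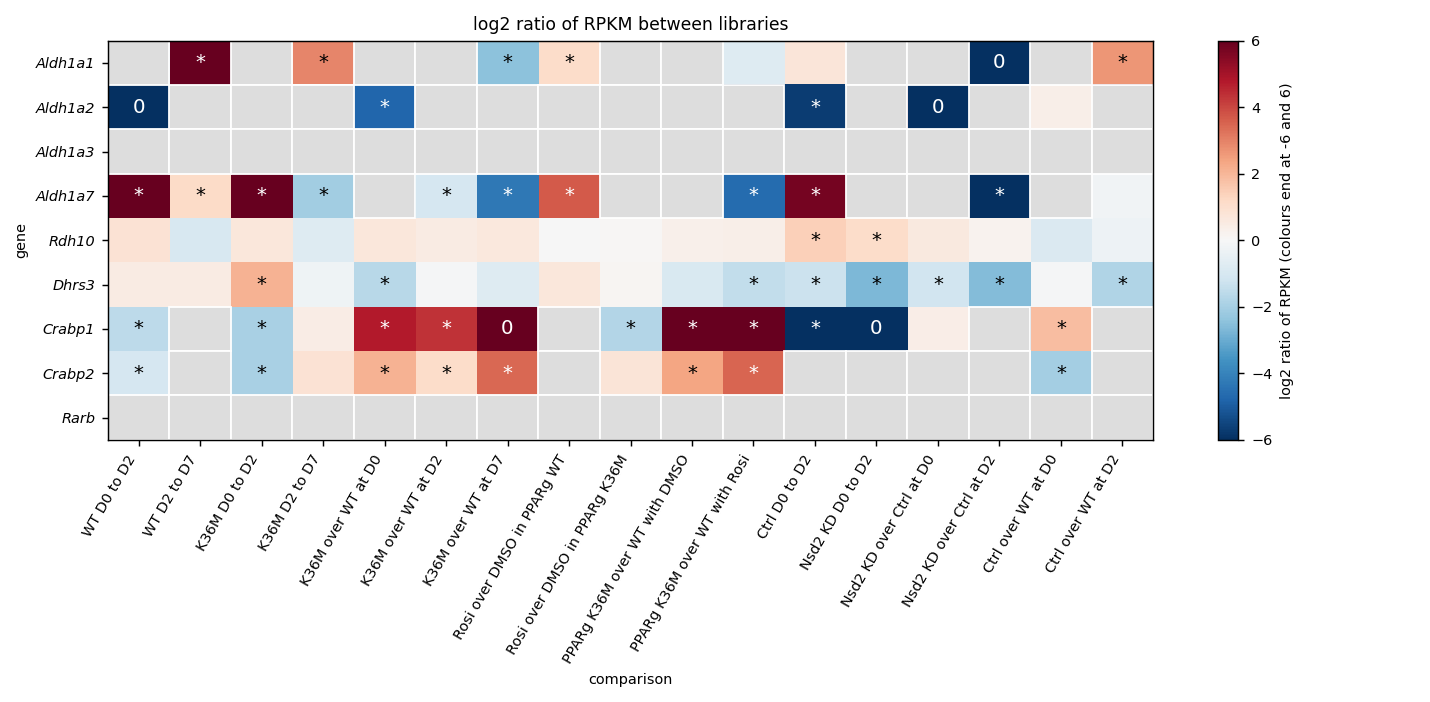
log2 ratio of RPKM for the 9 genes (rows) in the 17 comparisons (columns), red where the library named before "over", or the later day, was higher. Grey cells are below 1 RPKM in both libraries, stars mark ratios over 2-fold, and 0 marks such ratios against a library with 0 reads. Crabp1 and Crabp2 are red in the 5 columns of K36M over WT, and Aldh1a3 and Rarb are grey throughout.

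The adipocyte markers are set beside *Aldh1a7*, *Dhrs3* and *Crabp1* in the plot of members against markers. *Aldh1a7* was above 2 RPKM in 6 of the 8 libraries whose marker sum exceeded 200. The exceptions were the PPARγ WT library with DMSO (0.804 RPKM, marker sum 214) and the PPARγ K36M library with Rosi (0.422 RPKM, marker sum 1232). The sum of 214 held 60.2 RPKM of *Pparg*, which those cells also carried on a retrovirus. *Dhrs3* read 5.04 in Ctrl at D2 at a marker sum of 1441, and 17.3 in K36M at D2 at 1603. *Crabp1* was at 9.70 to 55.8 RPKM in the K36M libraries, over marker sums from 37.1 to 1603. Without the mutant it read 10.1 in KD at D0 and 7.58 in Ctrl at D0, and in Ctrl it fell to 0.0670 at D2 while the marker sum went from 42.2 to 1441.

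**Figure D4:**
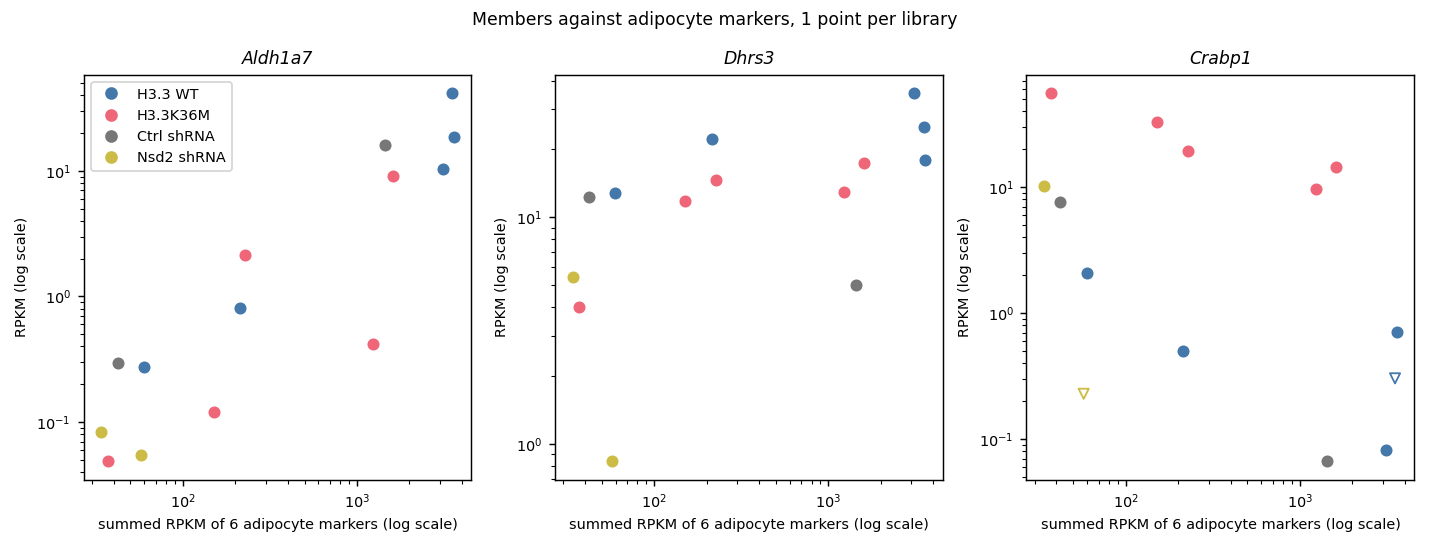
RPKM of Aldh1a7, Dhrs3 and Crabp1 against the summed RPKM of 6 adipocyte markers (Pparg, Cebpa, Fabp4, Adipoq, Plin1, Cd36), both on log scales, with 1 point per library coloured by cell kind. Open triangles stand at the RPKM of 3 reads for libraries with 0 reads. The K36M points of Crabp1 lie at 9.70 or above at every marker level.

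Around the 9 genes, 48 other retinoid pathway genes were followed, of which 29 reached 1 RPKM in some library. The list held the lipid genes *Lpl*, *Lipe*, *Dgat1* and *Fabp5*, and the part of the adipocyte markers in its counts was not tested. From D0 to D2, 11 rose and 4 fell of 27 in WT, and 11 rose and 3 fell of 26 in Ctrl. Those with the largest ratios among genes of at least 5 RPKM were enzymes and carriers. *Adh1*, an alcohol dehydrogenase that oxidizes retinol, went from 1.51 to 36.8 RPKM in WT. *Lipe*, the hormone-sensitive lipase that also releases retinol from its esters, went from 1.73 to 145. *Fabp5*, a fatty acid binding protein that can carry retinoic acid to PPARδ, went from 14.9 to 482. *Rbp4*, the retinol carrier of blood, went from 0.163 to 7.26 in Ctrl (3 to 136 reads, log2 5.47, interval 3.90 to 7.77). The median log2 ratio of the list was 0.61 in WT and 0.52 in Ctrl, against -0.01 and 0.07 over all genes tested. Of all genes, 26.7% in WT and 27.4% in Ctrl passed 2-fold.

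In KD at D2 the same list was lower: 1 was higher and 11 were lower than in Ctrl of 25, beside 14.4% of all genes. The median log2 ratio was -0.65 against -0.05 over all genes. *Rbp4* read 0.0609 against 7.26 (136 to 1 reads, log2 -6.90, interval -12.21 to -4.39) and *Adh1* read 0.170 against 16.1 (log2 -6.57, interval -8.45 to -5.20). At D0 the list did not differ that way, with 2 higher and 2 lower of 24, near the 17.4% of all genes. The median was 0.11 against -0.00. The largest ratio there, among genes of at least 5 RPKM, was that of *Cyp26b1*, which breaks down retinoic acid, at 10.8 RPKM in KD against 1.71 in Ctrl (log2 2.66, interval 2.42 to 2.92). *Cyp26b1* then fell 5.03-fold in KD, to 2.16 at D2. The list also moved one way between the controls. In Ctrl over WT, 0 were higher and 8 lower of 26 at D0, beside 22.2% of all genes. At D2, 0 were higher and 5 lower of 25 in that contrast, beside 11.2%. The median log2 ratios were -0.14 at D0 and -0.38 at D2, against -0.24 and -0.14 over all genes.

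In K36M over WT at D0, 0 were higher and 2 lower of 26, with a median log2 ratio of -0.12 against 0.09 over all genes, of which 11.4% passed 2-fold. At D2, 5 were higher and 4 lower of 26, with a median of 0.13 against 0.07 over all genes, of which 15.6% passed. *Fabp5* was 12.8-fold and *Lpl*, the lipase that also takes up retinyl esters, 4.56-fold lower there, while *Adh7* was 5.07-fold higher. The list was lower at D7, with 2 higher and 11 lower of 29, beside 20.2% of all genes. The median log2 ratio was -0.69 against 0.12 over all genes. *Fabp5* read 5.01 against 84.0 and *Rbp4* read 2.73 against 17.8 at D7. *Adh1* was an exception at D2 in K36M, where it rose 71.3-fold from D0, to 118 RPKM, and then fell 8.47-fold by D7. Rosi raised 12 and lowered none of 25 in PPARγ WT cells, beside 15.0% of all genes. It raised 8 and lowered 1 of 26 in PPARγ K36M cells, beside 16.8%. In the WT and K36M cells the medians were 0.91 and 0.25 against 0.06 and -0.04 over all genes. *Adh1* rose 104-fold in the first and 8.36-fold in the second, and *Cyp26b1* rose 10.0-fold in PPARγ K36M cells, to 9.71 RPKM.

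The 16 textbook targets of retinoic acid receptors, of which 11 reached 1 RPKM, did not move as one. From D0 to D2 in WT, 2 rose and 3 fell of 10, with a median log2 ratio of 0.14 against -0.01 over all genes, of which 26.7% passed 2-fold. In Ctrl 2 rose and 5 fell of 11, with a median of -0.29 against 0.07 over all genes, of which 27.4% passed. *Rarg*, the γ receptor and itself a target, fell 7.47-fold in WT, 5.10-fold in Ctrl and 3.81-fold in KD. *Rarres1*, a retinoic acid responsive gene, went opposite ways in the controls, from 1.89 to 14.6 RPKM in WT and from 16.3 to 2.60 in Ctrl. In KD at D0, 2 targets were higher and 4 lower than in Ctrl of 11, *Rarres1* among the lower at 0.935 RPKM. In K36M at D7, 1 was higher and 4 were lower than in WT of 10, with *Rarres1* at 0.406 against 16.7 (log2 -5.36, interval -6.69 to -4.30). The median log2 ratios of these contrasts were -0.52 against -0.00 and -0.75 against 0.12 over all genes, of which 17.4% and 20.2% passed. Other contrasts had medians on either side of 0. K36M over WT was -0.42 at D0 and 0.53 at D2, against 0.09 and 0.07 over all genes. With PPARγ it was 0.07 with DMSO and 0.39 with Rosi, against -0.02 and -0.11. KD over Ctrl at D2 was -0.65 against -0.05. Between the controls, Ctrl over WT was -0.60 at D0 and -0.33 at D2, against -0.24 and -0.14.

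Of 15 other aldehyde dehydrogenase genes, 14 reached 1 RPKM in some library. In KD over Ctrl, 0 were higher and 3 lower of 11 at D0, and 0 higher and 4 lower of 10 at D2. The medians were -0.63 and -0.68 against -0.00 and -0.05 over all genes, of which 17.4% and 14.4% passed 2-fold. Among those of at least 5 RPKM, the largest D2 ratio was 3.28-fold for *Aldh6a1*, a mitochondrial enzyme of valine breakdown, at 8.43 RPKM against 27.6. Between the controls, 0 were higher and 3 lower in Ctrl than in WT of 12 at D0, beside 22.2% of all genes. At D2 there, 0 of 10 passed, beside 11.2%. In K36M over WT, 0 of 12 passed at D0, beside 11.4%. At D2, 2 were higher and 0 lower of 13, beside 15.6%, with a median log2 ratio of 0.30 against 0.07. With PPARγ, 2 were higher and 0 lower of 13 with DMSO, beside 8.20%. With Rosi, 1 was higher and 4 lower of 12, beside 19.1%. In K36M over WT at D7, 1 was higher and 5 lower of 14, beside 20.2% of all genes. The median was -0.39 against 0.12 over all genes, and *Aldh6a1* was the largest by the same rule, at 13.7 RPKM against 97.7. *Aldh1l1*, a folate enzyme, went from 0.339 to 14.9 RPKM from D2 to D7 in WT, the same interval in which *Aldh1a1* rose.

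The genes whose patterns were most like those of the members were taken by Pearson r of log2(RPKM + 1) over the 14 libraries, among 10514 genes that reached 5 RPKM. The libraries share cells and days, so r is a description. For *Aldh1a7* they were *Prkar2b*, a regulatory subunit of protein kinase A (r = 0.97), *Fzd4*, a Wnt receptor (r = 0.96), and *Lipe* (r = 0.96). For *Aldh1a1* they were *E030003E18Rik* (r = 0.94), *Thrsp* (r = 0.93) and *Clec3b* (r = 0.93). For *Crabp1* they were *Vgf* (r = 0.91), *Cdh3*, the P-cadherin gene (r = 0.90), and *Hmga2-ps1* (r = 0.90). For *Crabp2* they were *Rpp25* (r = 0.92), *Coil* (r = 0.91) and *Cd74* (r = 0.90). For *Dhrs3* they were *Cavin3* (r = 0.92), *Ehd2* (r = 0.91) and *Copz2* (r = 0.90). For *Rdh10* they were *Onecut2* (r = 0.94), *Rnf149* (r = 0.92) and *Psmf1* (r = 0.90). For *Aldh1a2* they were *Slco3a1* (r = 0.80), *Rspo2* (r = 0.79) and *Rasl11a* (r = 0.78).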

How the data were processed

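Purified mRNA of 14 cultures was sequenced on the Illumina platform, 1 library per condition. The authors deposited 1 file per library with RPKM for each of 29082 RefSeq transcripts, mapped to mm9 per the labels. Their aligner, read length and counting rule are not given in the sources used here, and the submitters' processing notes name CASAVA 1.8.2 and SICER. RefSeq transcripts were paired with symbols for 97.8% of rows. RPKM steps gave whole reads for 26946 of 26946 transcripts above 0 in 2 or more libraries (tolerance 1e-05 reads), used only for intervals and floors of 3 reads. Ratios used RPKM as deposited, with no pseudocount. Recovery and calls were tested on simulated data. With 1 library per condition no test was run. The members and lists were chosen with earlier results of these data known.

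Of the lists, the text names up to 3 genes per comparison with the largest ratio over 2-fold and RPKM of at least 5, and for each member the 3 most alike genes. Likeness used log2 of RPKM plus 1. Alternatives were an RPKM above 0, a pseudocount of 1, division by the median ratio, RPKM summed over transcripts, and an interval excluding 1. Python 3.11.15, pandas 2.3.3 and SciPy 1.17.1 were used. Promoters were those of RefSeq on GRCm38.p6, and gene positions were those of GENCODE on NCBIM37. The chromatin samples were not analysed here.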

Additional observations from a re-analysis of the deposited data

Results flagged for a closer look

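4 pairs of responses ran in opposite directions with counting intervals on either side of 0. These differences were not tested, since each response compares 1 library with 1 library. From D2 to D7, *Aldh1a7* was higher by log2 1.16 in WT and lower by log2 2.10 in K36M, so that the K36M response minus the WT response was -3.26. From D0 to D2, *Aldh1a1* was at log2 -1.80 in WT and 1.47 in K36M, a difference of 3.27, and at 0.71 in Ctrl, a difference of 2.505 from WT. In WT at D2 this gene held 9 reads, and 1 of the 6 libraries behind these ratios was above 1 RPKM. From D0 to D2, *Dhrs3* was at log2 0.48 in WT and -1.28 in Ctrl, a difference of -1.76 between control populations with 137 to 461 reads in each library.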

How the results depend on the processing

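Counts of members over 2-fold stayed within 1.5 times of those given in all 17 comparisons when ratios were divided by the median ratio, when RPKM was summed over transcripts and when the counting interval had to exclude 1. The last left out *Crabp2* from D0 to D2 in WT and for K36M over WT at D2. Admitting any RPKM above 0 raised the count from 2 to 6 for WT D2 to D7, from 2 to 4 for K36M D2 to D7, from 3 to 5 for K36M over WT at D2, from 2 to 5 for Rosi in PPARγ WT, from 1 to 4 for Rosi in PPARγ K36M, from 2 to 6 for PPARγ K36M over WT with DMSO, from 3 to 6 for KD D0 to D2, from 2 to 6 for KD over Ctrl at D0, from 3 to 6 for KD over Ctrl at D2 and from 2 to 5 for Ctrl over WT at D2. The genes gained were under 1 RPKM. A pseudocount of 1 lowered the count from 4 to 2 for WT D0 to D2, from 3 to 1 for K36M over WT at D2, and from 2 to 1 for Rosi in PPARγ WT, for PPARγ K36M over WT with DMSO and for Ctrl over WT at D0. The calls it ended were *Crabp1* and *Crabp2* for WT D0 to D2, *Aldh1a7* and *Crabp2* for K36M over WT at D2, *Aldh1a1* for Rosi in PPARγ WT, *Crabp2* for PPARγ K36M over WT with DMSO and for Ctrl over WT at D0, and *Rdh10* for KD D0 to D2.

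Of 138 log2 ratios of single members, none that passed 2-fold changed sign. The pseudocount moved 36 of them, division by the median 1 and summing transcripts 0 beyond their counting interval. No paired analysis was possible because each condition had 1 library. Members at 0 to 3 reads are limited by depth, with 3 reads worth 0.123 to 0.246 RPKM on a transcript of 1 kilobase and less on a longer one.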
